A study of Rattus norvegicus with 4 samples.

Results

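The 9 genes described here, Pitx1, Foxc1, Foxc2, Lbx1, Pax3, Tbx1, Tbx15, Tcf21 and Msc, encode transcription factors that mark positions of the embryonic head and limb. They were taken by symbol from the 25399 genes of the feature table, which holds each of them once. No measured value entered that rule, but the genes were chosen with earlier results of these data known. Cells of 2 rat muscles were profiled by droplet 3' single-cell RNA sequencing at 12 months: the tibialis anterior (TA), a limb muscle on the shin, and the extraocular muscles (EOM) around the eyeball. There were 4 libraries of total cells, 1 for each muscle labelled wild-type (WT) and 1 for each muscle labelled DMD, the abbreviation of Duchenne muscular dystrophy. No treatment was given, per the labels. The sources used here do not give the strain, the sex, the dystrophin allele or the number of animals per library. In all 4 samples the title states the opposite disease state from the disease state field, so a library is named here as that field labels it: TA-WT, TA-DMD, EOM-WT and EOM-DMD. The WT pair is EOM-WT against TA-WT, and the DMD pair EOM-DMD against TA-DMD. Exchanging the labels would exchange the WT pair with the DMD pair and leave each EOM against TA contrast as it stands.

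The analysed cells numbered 2083 in TA-WT, 7964 in TA-DMD, 1249 in EOM-WT and 2261 in EOM-DMD, and 4 values in a row follow this order unless said otherwise. Their median depth was 2484, 1224, 3650 and 4488 unique molecular identifiers (UMIs) per cell, so TA-DMD was the shallowest. Pairs of libraries shared at most 5 analysed barcodes. Cell classes were rebuilt by clustering and are called by their markers with the ending "-like". Levels are UMIs of a gene per 1000000 UMIs of its class in a library (CPM), and the intervals in parentheses are exact intervals at the 95% level that cover counting error only. With 1 library per group, a difference between 2 libraries has no replicate check.

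Head muscles and limb muscles reach the same contractile end by different embryonic routes. In the limb, precursors that express the paired box gene Pax3 and the homeobox gene Lbx1 leave the somites and migrate into the limb bud. In the head, muscle forms from cranial mesoderm. For some head muscles the factors include the T-box gene Tbx1 and the basic helix-loop-helix genes Msc (also known as MyoR) and Tcf21 (capsulin). They are not taken here as markers of the eye muscles. Pitx1 is best known for giving the hindlimb its identity, Tbx15 for roles in the limb skeleton and in muscle fibres, and Foxc1 and Foxc2 for the mesenchyme around the eye and for blood and lymphatic vessels. Duchenne muscular dystrophy, the loss of dystrophin, damages limb muscles severely and largely spares those of the eye.

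Of the 9 genes, 7 gave at least 1 UMI in the 13557 analysed cells. Foxc1 had 2337 UMIs, Tbx15 1395, Tbx1 208, Foxc2 153, Pitx1 62, Lbx1 45 and Msc 13. Pax3 (ENSRNOG00000013670) and Tcf21 (ENSRNOG00000016700) had 0 UMIs, also in the deposited barcodes that were left out, and 0 of 13557 cells allows a share of up to 0.0221% of cells with a UMI. A 3' tag sees a gene only through its annotated end, and whether that bears on those 2 genes was not tested.

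The genes lay in different cells. Satellite-like cells, the muscle stem cells, held 73.3% of the Lbx1 UMIs, 56.5% of those of Pitx1 and 76.9% of those of Msc. Myofibre-like barcodes held another 24.4% for Lbx1 and 22.6% for Pitx1. Tbx1 UMIs were divided between lymphatic endothelial-like cells (32.7%), myofibre-like barcodes (32.7%) and satellite-like cells (17.8%). Endothelial-like cells held 43.2% of the Foxc1 UMIs and mural-like cells, the pericytes and smooth muscle of vessels, 25.8%. Fibroblast-like cells held 47.7% of the Tbx15 UMIs and mural-like cells 25.4%. Classes of different size and depth add up to these shares, so they say where the UMIs came from and not in which class a gene was highest.

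**Figure D1:**
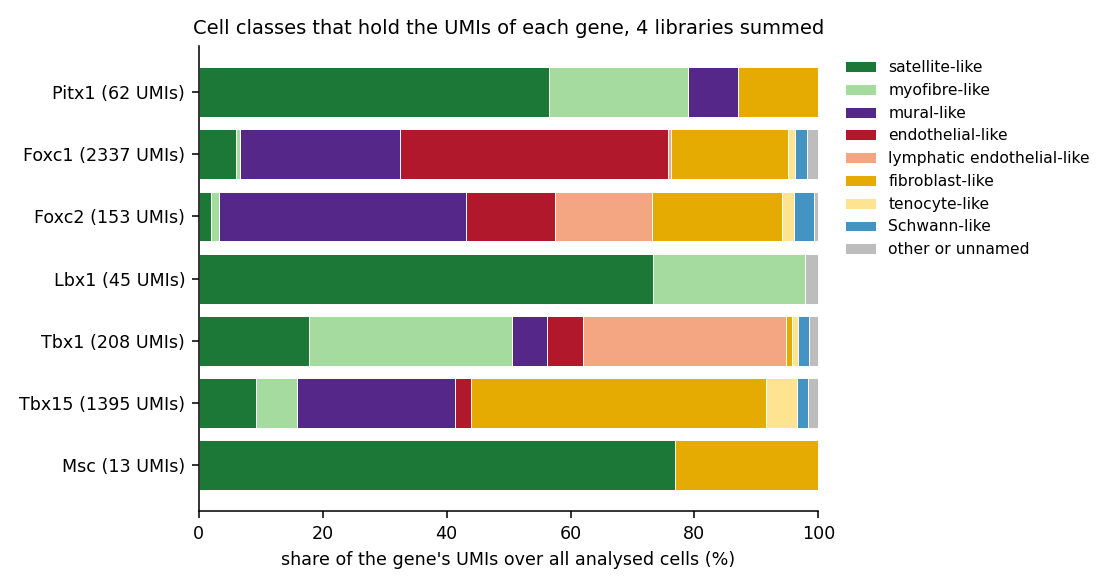
Share of each gene's UMIs (horizontal axis, %) by cell class, summed over the 4 libraries, for the 7 genes with a UMI. Lbx1, Pitx1 and Msc lie mostly in satellite-like cells, Foxc1 in vessel classes and Tbx15 in fibroblast-like and mural-like cells.

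Pitx1, Lbx1 and Msc gave 0 UMIs in macrophage-like, erythroid-like and T cell-like cells, which should lack them. Tbx1 had 1 UMI in erythroid-like cells of TA-DMD (2.62 CPM) and 1 in the 9 of EOM-DMD, and Foxc2 had 1 in TA-DMD (2.62 CPM). Foxc1 and Tbx15 gave more, mainly in 1 library. In TA-DMD, Foxc1 stood at 17.9 CPM in macrophage-like and 28.9 CPM in erythroid-like cells, and Tbx15 at 10.1 and 15.7 CPM. In the other 3 libraries those classes held 0 to 2 UMIs of either gene. Levels of Foxc1 and Tbx15 in TA-DMD at or under these values are therefore not read as expression.

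Promoter sequences of the genes whose levels are set against each other most are shown here, as far as the RefSeq table (build GRCr8) holds them. It holds 6 of the 9 genes, among them Pax3 and Tcf21. Each line gives the 250 bases before an annotated start, 5′ to 3′ on the gene's strand, for Foxc1 (chr17:32844101-32844350, minus strand), Lbx1 (chr1:254034827-254035076, minus strand), Tbx15 (chr2:189265123-189265372, plus strand) and 2 starts of Tbx1 (chr11:95913360-95913609, plus strand, and chr11:95915154-95915403, plus strand). Capitals mark the CCAAT box (CCAAT) and the GC box (GGGCGG), both searched on either strand.
Foxc1: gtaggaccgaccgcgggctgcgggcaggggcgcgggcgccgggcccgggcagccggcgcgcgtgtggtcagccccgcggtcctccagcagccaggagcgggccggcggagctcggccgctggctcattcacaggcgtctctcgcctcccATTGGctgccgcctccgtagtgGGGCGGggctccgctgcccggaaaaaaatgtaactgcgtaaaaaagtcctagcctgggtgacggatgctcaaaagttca
Lbx1: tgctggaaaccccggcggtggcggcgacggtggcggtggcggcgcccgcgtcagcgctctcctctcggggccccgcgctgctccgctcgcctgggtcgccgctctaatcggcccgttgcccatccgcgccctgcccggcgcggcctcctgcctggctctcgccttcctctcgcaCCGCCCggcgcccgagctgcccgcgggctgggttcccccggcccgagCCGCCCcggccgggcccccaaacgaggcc
Tbx15: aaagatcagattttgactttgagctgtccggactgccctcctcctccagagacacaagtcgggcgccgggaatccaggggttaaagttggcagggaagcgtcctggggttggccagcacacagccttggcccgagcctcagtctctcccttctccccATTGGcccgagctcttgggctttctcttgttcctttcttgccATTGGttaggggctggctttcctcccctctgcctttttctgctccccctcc
Tbx1, first start: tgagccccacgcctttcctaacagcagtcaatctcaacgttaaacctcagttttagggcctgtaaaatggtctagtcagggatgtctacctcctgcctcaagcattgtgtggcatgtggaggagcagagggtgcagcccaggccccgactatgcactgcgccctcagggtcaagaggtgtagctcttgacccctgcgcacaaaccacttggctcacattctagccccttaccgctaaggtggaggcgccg
Tbx1, second start: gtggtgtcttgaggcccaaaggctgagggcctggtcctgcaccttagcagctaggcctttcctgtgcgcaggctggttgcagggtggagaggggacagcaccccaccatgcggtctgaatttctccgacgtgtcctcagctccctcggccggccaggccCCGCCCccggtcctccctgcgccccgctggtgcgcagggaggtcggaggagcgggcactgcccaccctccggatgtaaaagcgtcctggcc

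The Foxc1 window held 1 CCAAT box and 1 GC box, that of Lbx1 2 GC boxes, that of Tbx15 2 CCAAT boxes and that of the second Tbx1 start 1 GC box. Of all 33469 promoters in the table, 34.0% held a CCAAT box and 30.5% a GC box in the same length. The forkhead letters TAAACA, the T-box letters GGTGTG, the Pitx letters TAATCC, the homeodomain letters TAATTA and TATAAA were in none of the 7 windows of the 6 genes, on either strand. They were in 12.1%, 15.4%, 6.34%, 4.86% and 12.9% of all promoters. The E-box letters CANNTG, in 65.5% of all promoters, were found 2 times before the first Tbx1 start and not before the starts of Foxc1, Lbx1 or Tbx15. The Lbx1 window was 80% G or C and that of Foxc1 70%, against a median of 51.2% over all promoters.

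Satellite-like cells divided the genes by muscle. Pitx1 and Foxc1 were higher in EOM, and Lbx1 and Tbx1 were higher in TA, each at 2-fold or more in both label pairs. The class held 56, 301, 134 and 225 cells in the order above. All 8 satellite markers had UMIs in each library, with a summed level of 3211 to 5010 CPM. The class was made of 2 clusters, and the libraries fell into them unequally. Cluster 10, led by the natriuretic peptide gene Nppc, held 48, 7, 132 and 219 cells, and cluster 17, led by Cpa1 and Myf5, held 8, 294, 2 and 6. The pair labelled WT thus compares mostly cells of cluster 10, while the DMD pair sets cluster 17 in TA, with a median of 1080 UMIs per cell, against cluster 10 in EOM, with 5416.5.

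Pitx1 (ENSRNOG00000011423), the hindlimb homeobox gene, was found in satellite-like cells of the eye muscles. Its only UMIs in TA lay in mural-like cells, 2 in TA-WT and 3 in TA-DMD. It had 0 UMIs in satellite-like cells of both TA libraries, 14 in EOM-WT and 21 in EOM-DMD. The EOM levels were 18.4 CPM (10.0 to 30.8) and 16.9 CPM (10.4 to 25.8). Set against a floor of 3 UMIs in the TA library, the EOM level was 2.04-fold higher in the WT pair and 4.38-fold higher in the DMD pair. The counting intervals of the fold began at 1.45 and 3.26. A UMI of Pitx1 was present in 6.72% and 8.44% of the EOM cells, and in 0 of 39 and 0 of 131 macrophage-like cells of those libraries, which were deeper (medians of 7706 and 9412 UMIs against 5801 and 5137). The 35 UMIs came from 28 cells, with at most 3 in a cell.

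Lbx1 (ENSRNOG00000025520), the gene of migrating limb muscle precursors, showed the opposite pattern. It had 7 UMIs in TA-WT (21.0 CPM, 8.46 to 43.3), 26 in TA-DMD (33.4 CPM, 21.8 to 48.9) and 0 in both EOM libraries. The TA libraries did not differ beyond counting error, at a DMD over WT ratio of 1.59 (0.67 to 4.33). Set against a floor of 3 UMIs in EOM, TA was 5.34-fold higher in the WT pair and 13.9-fold higher in the DMD pair. The counting intervals of the fold began at 3.30 and 10.5. The UMIs came from 7 of 56 and 23 of 301 cells.

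Tbx1 (ENSRNOG00000001892), known from head and pharyngeal mesoderm, was also on the TA side. It had 10 UMIs in TA-WT (30.1 CPM, 14.4 to 55.3), 25 in TA-DMD (32.1 CPM, 20.8 to 47.4), 2 in EOM-WT (2.63 CPM, 0.32 to 9.48) and 0 in EOM-DMD. Both TA libraries lay above both EOM libraries. TA was 11.4-fold higher in the WT pair (2.44 to 107). In the DMD pair it was 13.3-fold higher against a floor of 3 UMIs in EOM, with an interval from 10.1 up. Of 301 cells of TA-DMD, 23 had a UMI of Lbx1, 21 of Tbx1 and 1 of both, counts too small to read a relation from.

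Foxc1 (ENSRNOG00000017800), a forkhead gene of the mesenchyme around the eye, had 0 UMIs in TA-WT, 5 in TA-DMD, 28 in EOM-WT and 108 in EOM-DMD. The levels were 0, 6.42 (2.08 to 14.98), 36.8 (24.4 to 53.1) and 86.7 CPM (71.1 to 105). The value of TA-DMD lay under that of macrophage-like cells of the same library. Against a floor of 3 UMIs in TA-WT, EOM was 4.08-fold higher in the WT pair. The counting interval of that fold began lower and left out 1. In the DMD pair EOM was 13.5-fold higher (5.61 to 42.4). EOM-DMD was itself 2.36-fold above EOM-WT (1.54 to 3.71).

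Tbx15 (ENSRNOG00000019565) was found in satellite-like cells of both muscles. It had 7, 18, 38 and 66 UMIs in TA-WT, TA-DMD, EOM-WT and EOM-DMD, which is 21.0 (8.46 to 43.3), 23.1 (13.7 to 36.5), 49.9 (35.3 to 68.5) and 53.0 CPM (41.0 to 67.4). EOM was 2.37-fold (1.05 to 6.29) and 2.29-fold higher (1.35 to 4.10) in the WT and DMD pairs. With the prior of 10 CPM on both sides that the 2-fold rule uses, the log2 ratios were 0.95 and 0.93, just under the limit of 1. Within cluster 10, the WT pair gave 2.23-fold with an interval that took in 1 (0.983 to 5.92).

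Msc (ENSRNOG00000007540), a repressor related to Tcf21, had 1, 1, 8 and 0 UMIs in the same order, so that EOM-WT held nearly all of it, and Foxc2 (ENSRNOG00000047446) had 0, 1, 1 and 1. The other 4 genes kept their side within cluster 10 of the WT pair. Cluster 10 held 48 of the 56 TA-WT and 132 of the 134 EOM-WT cells of the class. It also held all their UMIs of these genes, so it is no separate check. The DMD pair, with 7 TA cells in that cluster, was not compared there. In the WT pair within cluster 10, Pitx1 had 14 and 0 UMIs in EOM and TA, Foxc1 28 and 0, Lbx1 0 and 7, and Tbx1 2 and 10. Tbx1 was 12.2-fold higher in TA (2.59 to 114). Against a floor of 3 UMIs, Foxc1 was 3.83-fold higher in EOM (interval from 2.92 up) and Pitx1 1.92-fold (from 1.36 up). Lbx1 was 5.68-fold higher in TA against that floor (from 3.51 up).

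**Figure D2:**
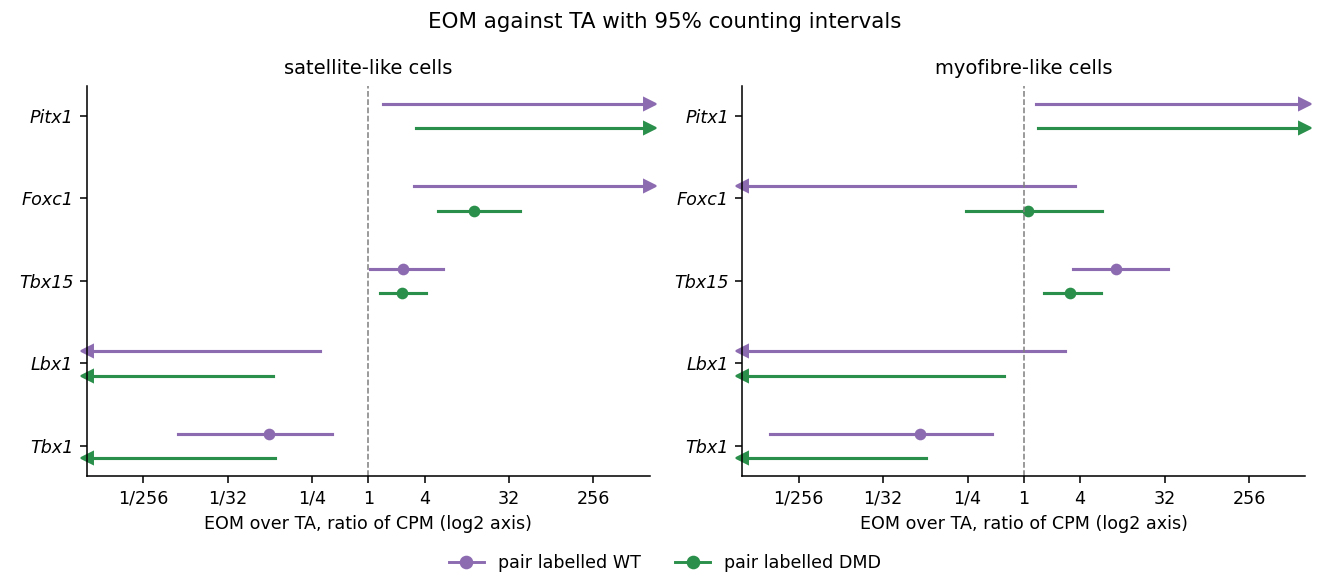
EOM over TA ratio of CPM (horizontal axis, log2 scaled) for 5 genes in satellite-like and myofibre-like cells, with 95% counting intervals for the WT pair and the DMD pair. Points are ratios, and an arrow marks an interval that is open because 1 library had 0 UMIs. In satellite-like cells Pitx1 and Foxc1 lie right of 1 and Lbx1 and Tbx1 left of 1 in both pairs, with Tbx15 close to a ratio of 2.

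By the rule of 2-fold or more in both pairs, with both counting intervals leaving out 1, 4 of the 6 genes with at least 10 UMIs in satellite-like cells passed. These were 2 higher in EOM (Pitx1 and Foxc1) and 2 higher in TA (Lbx1 and Tbx1). Over all 10350 genes with that many UMIs, 0.415% passed as higher in EOM and 0.589% as higher in TA. Each of the 4 reached 10 UMIs only through the muscle where it was higher, so this count is a description. A model over the 4 libraries gave no call. In edgeR's quasi-likelihood test with the label as an additive term, 0 of 10350 genes had an adjusted p under 0.05 (0% in either direction), while 944 had an unadjusted p under 0.05. That fit has 1 residual degree of freedom per gene. DESeq2 called 29 genes and gave none of the 6 an adjusted p.

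In edgeR's quasi-likelihood test the unadjusted and adjusted p were 0.000752 and 0.328 for Foxc1, 0.00375 and 0.497 for Lbx1, and 0.00621 and 0.497 for Tbx15. They were 0.0063 and 0.497 for Tbx1, 0.00849 and 0.497 for Pitx1, and 0.612 and 0.899 for Msc. Over edgeR fits that left out 1 library, the log2 difference lay between 3.13 and 8.68 for Foxc1 and between 6.57 and 7.06 for Pitx1. It lay between -7.50 and -3.41 for Tbx1 and between 1.22 and 1.48 for Tbx15. For Lbx1, which had too few UMIs without TA-DMD, it lay between -7.87 and -7.11. Msc had enough UMIs only without EOM-DMD, at 2.43. The calls of the 2-fold rule were lost when each cell was thinned to 1000 UMIs, which left 1 to 16 cells with a UMI for any gene found. The thinned log2 ratios of the WT and DMD pairs were 2.84 and 2.32 for Foxc1 and 1.73 and 1.23 for Pitx1, so these 2 kept their side. They were 0 and -1.19 for Lbx1 and 1.34 and -1.54 for Tbx1.

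Markers of other cell types were present in satellite-like cells. The summed endothelial list stood at 33.1, 548, 38.1 and 16.1 CPM in TA-WT, TA-DMD, EOM-WT and EOM-DMD. The mural list stood at 3062, 1387, 1578 and 923 CPM, and the fibroblast list at 1530, 2410, 1562 and 2380 CPM. Of the other marker lists, 3 were higher in both EOM libraries than in both TA libraries, as Foxc1 and Pitx1 were. The perineurial list stood at 36.1, 44.9, 63.0 and 77.1 CPM, with 2, 5, 3 and 3 of its 6 markers found and Moxd1 at 0 in each library. The dendritic list stood at 30.1, 11.6, 48.6 and 35.3 CPM and the neuron list at 3.01, 3.85, 6.56 and 4.01 CPM. The part of these in the EOM levels was not tested. Of the 10 mural markers, 5 had a UMI in TA-WT, where Rgs5, Pdgfrb and Myh11 were at 0, and 10 in the other 3 libraries. Of 9 fibroblast markers, 4 had a UMI in TA-WT, where Pdgfra and Lum were at 0, and 7 in each other library. Of 7 endothelial markers, 5, 7, 6 and 6 had one, with Cdh5 at 0 in TA-WT and Emcn at 0 in both EOM libraries. All 6 myofibre markers had UMIs in each library. Their sum stood at 138, 375, 133 and 128 CPM and so moved with Tbx1 and Lbx1, as did the mast cell list at 3.01, 2.57, 0 and 0 CPM. Their part in the TA levels was not tested.

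In myofibre-like barcodes Tbx1 was again higher in TA in both pairs, while Pitx1 and Lbx1 had few UMIs. The class held 141, 182, 38 and 155 cells in TA-WT, TA-DMD, EOM-WT and EOM-DMD, too few in EOM-WT for the class to enter the 2-fold count. It was made of clusters 7 and 9. Cluster 7, with a median of 780 UMIs per cell, held 13, 80, 1 and 1 of the cells. Cluster 9, with a median of 1240, held 128, 102, 37 and 154. Tbx1 had 42 UMIs in TA-WT (153 CPM, 111 to 207), 25 in TA-DMD (107 CPM, 69.0 to 157), 1 in EOM-WT and 0 in EOM-DMD. TA was 12.9-fold higher in the WT pair (2.19 to 520). In the DMD pair it was 14.9-fold higher against a floor of 3 UMIs in EOM. The counting interval of that fold began lower and left out 1. The Tbx1 UMIs came from 32 of 141 and 22 of 182 cells, so they did not rest on a few barcodes.

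Pitx1 had 0 UMIs in the myofibre-like barcodes of both TA libraries, 3 in the 38 cells of EOM-WT and 11 in EOM-DMD. Against a floor of 3 UMIs in TA, EOM was 2.05-fold higher in the DMD pair. The counting interval of that fold began lower and left out 1. Lbx1 had 6 and 5 UMIs in TA-WT and TA-DMD and 0 in both EOM libraries. Its counting interval took in 1 in the WT pair (TA over EOM from 0.361 up). In the DMD pair TA was 2.99-fold higher against a floor of 3 UMIs in EOM, with an interval from 1.64 up. Tbx15 had 5 UMIs in TA-WT (18.3 CPM, 5.93 to 42.6), 11 in TA-DMD (46.9 CPM, 23.4 to 83.9), 15 in EOM-WT (179 CPM, 100.01 to 295) and 62 in EOM-DMD (148 CPM, 113 to 189). Tbx15, which is known to act in fast glycolytic fibres, was thus higher in EOM by 9.79-fold (3.38 to 34.4) and 3.15-fold (1.64 to 6.63). Foxc1 did not follow its satellite-like pattern here, with 5, 3, 0 and 6 UMIs and no order between the muscles.

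Markers of other cells moved with Tbx1 in myofibre-like barcodes. The endothelial list stood at 1413, 1471, 119 and 109 CPM in TA-WT, TA-DMD, EOM-WT and EOM-DMD, with 7, 7, 4 and 7 of its 7 markers found and Flt1, Egfl7 and Emcn at 0 in EOM-WT. Endothelial-like cells themselves held Tbx1 at 0.257 CPM in TA-WT and 1.52 CPM in TA-DMD, far under the myofibre-like level, and no Lbx1. The erythroid list stood at 1106, 584, 262 and 71.4 CPM, the adipocyte list at 267, 179, 11.9 and 33.3 CPM and the Schwann list at 3.65, 25.6, 0 and 2.38 CPM, and their part was not tested. The myofibre list itself was also higher in TA, at 125263 and 142285 against 96880 and 111347 CPM. The neuron list alone was higher in both EOM libraries, at 23.8 and 2.38 CPM against 0 in TA.

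**Figure D3:**
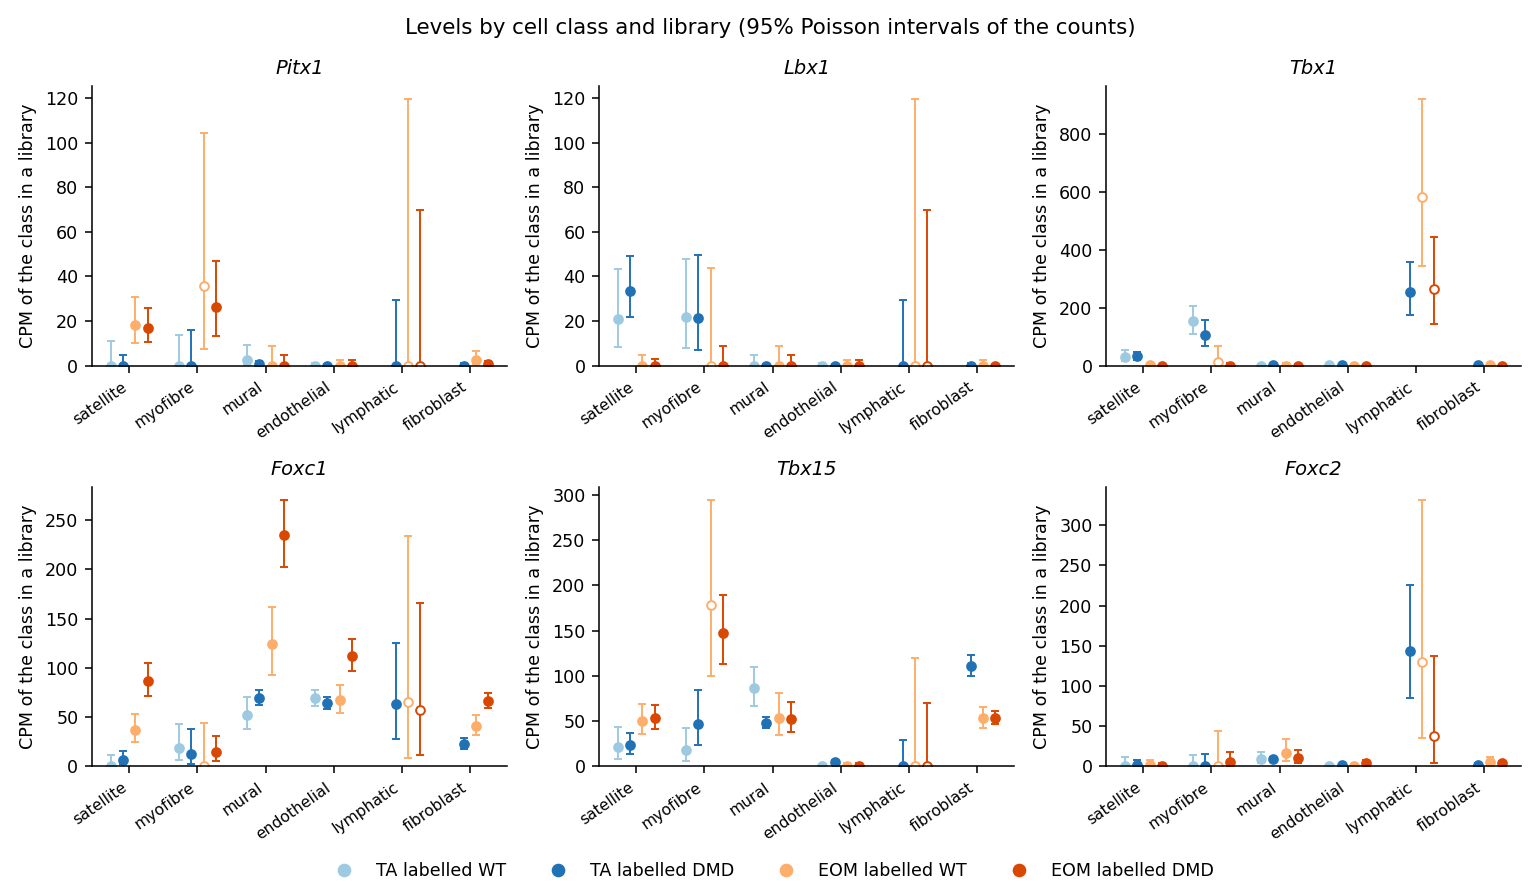
CPM of 6 genes (vertical axes, each from 0) by cell class and library, with 95% Poisson intervals; open points mark classes with under 50 cells in a library, and those with under 10 cells are left out. Pitx1 appears in EOM and Lbx1 in TA muscle cells, Foxc1 is highest in mural-like cells of EOM, and Tbx1 and Foxc2 stand out in lymphatic endothelial-like cells.

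Foxc1 was higher in EOM in mural-like cells too. It had 41 UMIs in TA-WT (52.0 CPM, 37.3 to 70.5), 321 in TA-DMD (69.4 CPM, 62.0 to 77.4), 53 in EOM-WT (124 CPM, 92.9 to 162) and 188 in EOM-DMD (235 CPM, 202 to 271). Both EOM libraries lay above both TA libraries. EOM was 2.38-fold higher in the WT pair (1.56 to 3.68) and 3.38-fold higher in the DMD pair (2.81 to 4.06). Of 4 genes with enough UMIs, Foxc1 alone passed the 2-fold rule, against 0.189% of 11649 genes as higher in EOM and 0.266% as higher in TA. Among the marker lists, the neutrophil list alone was higher in both EOM libraries here, at 4.68 and 11.2 CPM against 0 and 2.38 CPM in TA, and its part was not tested. Leaving out the cell with the most Foxc1 UMIs (12 UMIs in TA-DMD and in EOM-WT, 20 in EOM-DMD) took the log2 ratio of the WT pair from 1.11 to 0.93 and ended the call.

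In edgeR's quasi-likelihood test over the mural-like sums, Foxc1 was higher in EOM with a log2 difference of 1.59 (SE 0.228, adjusted p = 1.56e-09), in 2 of 2 EOM libraries. Of all genes tested, 1.42% were called higher in EOM and 1.73% higher in TA. The fit pooled the spread over all genes without limit, and the call was lost when any 1 library was left out (edgeR adjusted p between 0.119 and 1.0, log2 difference between 0.98 and 2.02) or when the label was not a term. DESeq2 gave an adjusted p of 0.0408.

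Foxc1 was higher in EOM in each of the 3 mural-like clusters, of 4, that could be compared, with both pairs in cluster 8 and the DMD pair alone in clusters 15 and 18. Cluster 11 was not compared: it held 859 of the 1777 mural-like cells of TA-DMD, with Foxc1 at 43.5 CPM, but 2 and 12 cells of EOM-WT and EOM-DMD. In cluster 8, led by the pericyte genes Vtn and Kcnj8, it stood at 11.3, 40.7, 45.8 and 120 CPM in TA-WT, TA-DMD, EOM-WT and EOM-DMD. EOM was 4.07-fold (1.33 to 14.7) and 2.95-fold higher (1.85 to 4.73) there. In cluster 15, led by the smooth muscle genes Acta2, Tagln and Myh11, 25 cells of EOM-DMD held 94 of that library's 188 mural-like UMIs, at 515 CPM against 145 CPM in TA-DMD, which is 3.56-fold (2.71 to 4.65). In cluster 18, led by Ccl11, the DMD pair gave 3.25-fold (2.16 to 4.84).

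**Figure D4:**
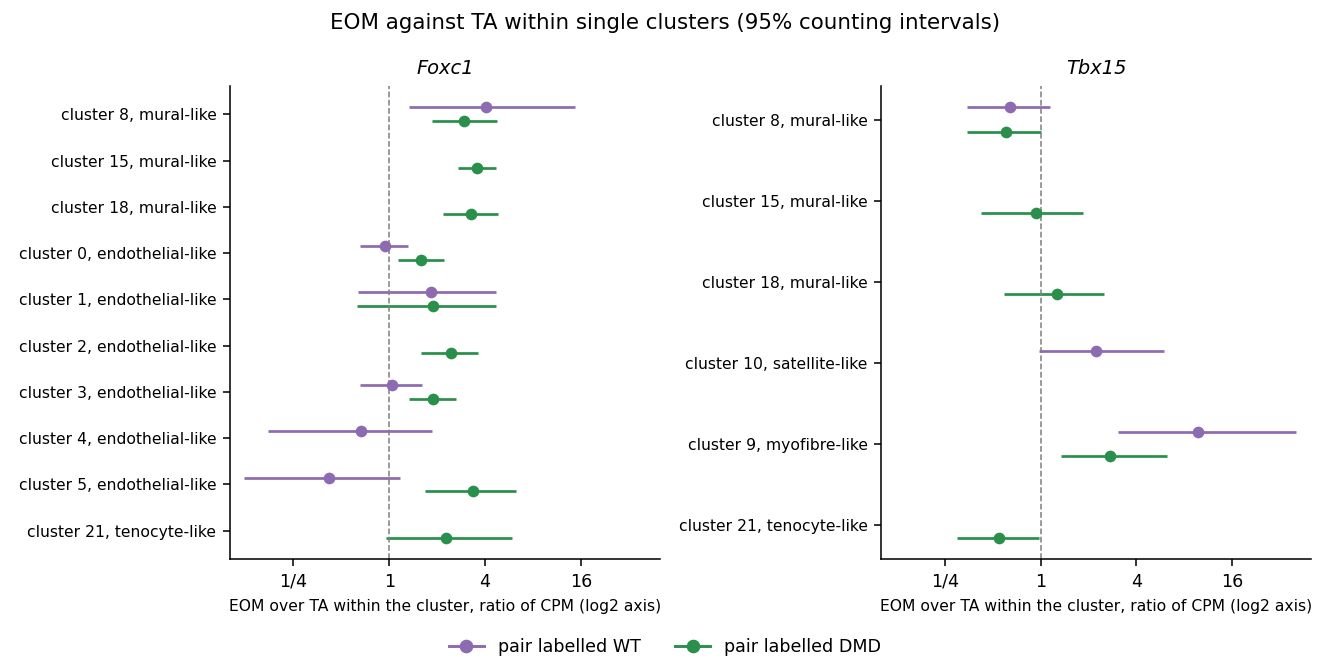
EOM over TA ratio of CPM within single clusters (horizontal axis, log2 scaled) for Foxc1 and Tbx15, with 95% counting intervals, for each pair with at least 20 cells of the cluster on both sides. Foxc1 lies right of 1 in the mural-like clusters 8, 15 and 18, near 1 in the WT pair of the endothelial-like clusters 0 and 3 and above 1 in their DMD pair, while Tbx15 lies near or left of 1 in mural-like and right of 1 in myofibre-like cells.

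In endothelial-like cells Foxc1 did not separate the muscles in both pairs. It stood at 69.0 CPM in TA-WT (61.0 to 77.8, 268 UMIs), 64.0 in TA-DMD (58.3 to 70.1, 463 UMIs), 67.2 in EOM-WT (54.5 to 82.1, 96 UMIs) and 112 in EOM-DMD (96.5 to 130, 183 UMIs). EOM-DMD lay above the other 3 libraries, which overlapped. The EOM over TA ratio was 0.975 (0.764 to 1.23) in the WT pair and 1.75 (1.47 to 2.09) in the DMD pair. None of the 4 genes with enough UMIs passed the 2-fold rule, against 0.106% of 12277 genes as higher in EOM and 0.138% as higher in TA.

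In edgeR's quasi-likelihood test on endothelial-like sums, none of the 4 genes was called, against 0.0244% of genes as higher in EOM and 0.0326% as higher in TA, and 828 genes had an unadjusted p under 0.05. Foxc1 had a log2 difference of 0.39 in that edgeR fit (SE 0.235, adjusted p = 0.757). DESeq2 called 18 genes, gave Foxc1 an adjusted p of 1.0 and gave the other 3 none. Among clusters with 20 cells on each side, the DMD pair gave Foxc1 ratios of 1.58 (1.13 to 2.21) in the capillary-type cluster 0, led by Ca4 and Aqp1, and 1.88 (1.34 to 2.64) in cluster 3, led by Cxcl12 and Igfbp3. The WT pair gave 0.935 (0.655 to 1.32) and 1.03 (0.654 to 1.61) in the same clusters. In the DMD pair the ratio was 1.88 in cluster 1 (0.63 to 4.69), 2.43 in cluster 2 (1.57 to 3.61) and 3.36 in cluster 5 (1.68 to 6.22). In the WT pair it was 1.82 in cluster 1 (0.635 to 4.69), 0.667 in cluster 4 (0.173 to 1.86) and 0.42 in cluster 5 (0.122 to 1.17). All 5 ratios of the DMD pair thus lay above 1, and all 5 intervals of the WT pair took in 1.

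In fibroblast-like cells only the DMD pair could be compared, since TA-WT held 9 of them. Foxc1 had 67 UMIs in TA-DMD (22.3 CPM, 17.3 to 28.3) and 306 in EOM-DMD (66.2 CPM, 59.0 to 74.1), 2.97-fold higher in EOM (2.27 to 3.93). The TA-DMD level lay under that of erythroid-like cells of the same library (28.9 CPM), so it is not read as expression. Tbx15 went the other way, with 333 UMIs in TA-DMD (111 CPM, 99.3 to 123) and 247 in EOM-DMD (53.4 CPM, 47.0 to 60.5), 2.07-fold higher in TA (1.75 to 2.46). EOM-WT stood at 41.0 CPM for Foxc1 and 53.1 CPM for Tbx15, the latter level with EOM-DMD. Of 3 genes with enough UMIs, Foxc1 passed the 2-fold rule in this pair, against 1.4% of 11825 genes as higher in EOM and 2.53% as higher in TA.

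The 2 libraries drew their fibroblast-like cells from different clusters. Of 1314 cells in TA-DMD, 1065 were in cluster 14 and 198 in cluster 30, both led by Apod with Myoc or Sfrp1. Of 683 cells in EOM-DMD, 565 were in cluster 22, led by Ces1d and Dcn. Tbx15 stood at 139 CPM in cluster 30 and 75.6 CPM in cluster 14 of TA-DMD, and at 54.6 CPM in cluster 22 of EOM-DMD. Foxc1 stood at 19.2, 25.8 and 67.3 CPM in the same order. Cluster 13 was the one fibroblast-like cluster with at least 20 cells on each side of the DMD pair (21 and 97), and it held 1 UMI of Tbx15.

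Tbx15 in mural-like cells showed no muscle difference that held in both pairs. It had 68 UMIs in TA-WT (86.2 CPM, 67.0 to 109), 222 in TA-DMD (48.0 CPM, 41.9 to 54.7), 23 in EOM-WT (53.8 CPM, 34.1 to 80.8) and 42 in EOM-DMD (52.4 CPM, 37.8 to 70.8). The EOM over TA ratio was 0.624 (0.371 to 1.01) and 1.09 (0.766 to 1.52). TA-DMD was lower than TA-WT over the whole class, at 0.556 (0.422 to 0.741). Within cluster 8 the 2 TA libraries stood at 101 and 92.5 CPM. Cluster 11, a shallow cluster with 859 of the 1777 mural-like cells of TA-DMD and 15 of the 179 of TA-WT, stood at 21.8 CPM.

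Ordered by class, Tbx15 was highest in different cells in the 2 libraries labelled DMD, 1 for each muscle. In TA-WT, with 9 fibroblast-like cells, that order could not be checked. In TA-DMD it ran from fibroblast-like (111 CPM) and tenocyte-like cells (85.8) to mural-like (48.0), myofibre-like (46.9) and satellite-like cells (23.1). Endothelial-like cells stood at 4.70 CPM, under the macrophage-like and erythroid-like values, and lymphatic endothelial-like and NK cell-like cells had 0 UMIs. The intervals of fibroblast-like and tenocyte-like cells overlapped, as did those of mural-like and myofibre-like cells. In EOM-DMD myofibre-like barcodes came first (148 CPM), and fibroblast-like (53.4), satellite-like (53.0), mural-like (52.4) and tenocyte-like cells (47.3) did not differ beyond their intervals. Endothelial-like cells had 1 UMI of Tbx15 there (0.613 CPM).

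Foxc1 in EOM-DMD ran from mural-like (235 CPM) over endothelial-like (112), satellite-like (86.7) and fibroblast-like (66.2) to Schwann-like (44.4), tenocyte-like (42.0) and myofibre-like cells (14.3). Mural-like cells lay above the interval of every other class in that list. In TA-DMD mural-like (69.4 CPM), endothelial-like (64.0) and lymphatic endothelial-like cells (63.5, from 8 UMIs in 66 cells) overlapped at the top. There, fibroblast-like (22.3), Schwann-like (22.7) and tenocyte-like cells (18.4) lay between the macrophage-like value of 17.9 CPM and the erythroid-like value of 28.9 CPM.

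Lymphatic endothelial-like cells, which line lymph vessels and were few (2, 66, 10 and 14 cells), held Tbx1 and Foxc2. Both genes were among the 2000 variable genes used to cluster, and Tbx1 was among the 10 leading genes of the cluster, so the levels are a description. Tbx1 had 32 UMIs in TA-DMD (254 CPM, 174 to 359), 18 in EOM-WT (583 CPM, 345 to 921), 14 in EOM-DMD (265 CPM, 145 to 444) and 4 in the 2 cells of TA-WT. Foxc2, which is known from the valves of lymph vessels, had 18 UMIs in 6 of 66 cells of TA-DMD (143 CPM, 84.7 to 226), 4 in EOM-WT and 2 in EOM-DMD.

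In mural-like cells Foxc2 stood at 8.88, 8.43, 16.4 and 9.98 CPM in TA-WT, TA-DMD, EOM-WT and EOM-DMD, from 7, 39, 7 and 8 UMIs. The EOM over TA ratios of 1.84 (0.552 to 6.16) and 1.18 (0.478 to 2.57) took in 1. Most of it lay in the smooth muscle cluster 15, with all 7 mural-like UMIs of TA-WT, 32 of 39 in TA-DMD and all 8 in EOM-DMD.

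Between the labels within a muscle, Foxc1 differed in EOM in 4 classes. These classes come from the same EOM libraries and are no separate checks, and the share of all genes that differ this way is not given here. EOM-DMD was above EOM-WT by 2.36-fold in satellite-like, 1.89-fold in mural-like (1.39 to 2.62), 1.67-fold in endothelial-like (1.3 to 2.16) and 1.62-fold in fibroblast-like cells (1.23 to 2.15). In TA the ratio was 1.33 in mural-like (0.962 to 1.89) and 0.927 in endothelial-like cells (0.796 to 1.08). Whether the muscles differ in this ratio was not tested, and the titles would turn its direction. Pitx1 did not differ between the EOM libraries beyond counting error (0.917, 0.445 to 1.95 in satellite-like cells), nor did Tbx1 between the TA libraries (1.07, 0.495 to 2.49), nor Tbx15 within either muscle in that class.

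Other genes of the head and limb programmes were followed in satellite-like cells. Among genes acting upstream in head muscle, Myf6 and Lhx2 passed the 2-fold rule. Myf6, a myogenic regulatory factor, stood at 134 and 155 CPM in EOM against 33.1 and 52.6 CPM in TA (labelled WT, then DMD). Lhx2, a LIM homeobox gene, was higher in TA, at 33.1 and 50.1 CPM against 2.63 and 3.21 CPM in EOM.

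Of 14 genes upstream in trunk and limb muscle, 10 were tested and none passed, with median log2 ratios of 0.22 and 0.14. Of 17 limb mesenchyme genes, 7 were tested and none passed, with medians of 0.18 and 0.17. Among relatives of the 9 genes, the forkhead gene Foxp2 passed (98.4 and 89.1 CPM in EOM against 36.1 and 10.3 in TA). The median over all 10350 genes was -0.04 in the WT pair and -0.11 in the DMD pair.

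Over 31 sums of a class in a library with at least 50 cells, from 13 classes, the genes most like each of the 4 most abundant genes were named by Pearson's r of log2(CPM + 10). The sums share libraries and cell classes, so r is a description. For Foxc1 they were Fzd4 (0.805), Crim1 (0.797) and AC108574.1 (0.793). For Foxc2 they were Pard6g (0.919), Krt79 (0.900) and Hdc (0.882), for Tbx1 Ptpn3 (0.768), Ppp6r2 (0.694) and Ampd1 (0.692), and for Tbx15 Sobp (0.879), Prrx1 (0.839) and Ndrg2 (0.809). Lymphatic endothelial-like cells entered through TA-DMD alone (66 cells), with Foxc2 at 143 CPM against 8.43 to 16.4 CPM in mural-like sums. The r of Foxc2 leans on that sum, and r without it was not computed. Pard6g was among the leading genes of the lymphatic cluster.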

How the data were processed

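The authors deposited UMI counts, whole numbers per gene and barcode, which per the file headers came from Cell Ranger 4.0.0 and used build rn6, per the submitters' processing notes. Annotation and cell calling settings are not given in those sources. The 4 libraries held 1917 to 8944 barcodes. Those with under 500 UMIs, under 200 genes or over 20% mitochondrial UMIs were left out, and the highest scrublet doublet scores were removed at 0.8% per 1000 cells, because the automatic threshold marked 30 cells. This left 13557 cells with 6522117 to 19269545 UMIs per library.

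Libraries were clustered together without integration (scanpy 1.11.5: 2000 variable genes, 30 components, 15 neighbours, Leiden resolution 1), giving 34 clusters. A cluster was named from marker lists where at least 3 markers were 2-fold above the median cluster. How markers were scored was decided with the clusters in view, and 2 clusters stayed unnamed. The genes and lists were chosen with earlier results of these data known.

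Counts were summed per class and library. The 2-fold rule asks for a log2 ratio of at least 1 (prior 10 CPM) and a conditional exact interval without 1, in both label pairs, for genes with at least 10 UMIs and classes with at least 50 cells in each library. Intervals and floors of 3 UMIs cover counting error only, and a fold against a floor takes the level of the other library as exact. edgeR 4.0.16 (quasi-likelihood, TMM, Benjamini-Hochberg, adjusted p under 0.05) was fitted over the 4 libraries with muscle and label, after testing on simulated counts. DESeq2 1.42.0 was an alternative. All 9 genes are named in every class, and other genes by the 2-fold rule with at least 20 CPM in a library, or by likeness. Some results of the gene lists are not reported here.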

Additional observations from a re-analysis of the deposited data

Results flagged for a closer look

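The EOM over TA ratio of Tbx15 pointed in different directions by cell class in the DMD pair. It was 2.29 in satellite-like cells (1.35 to 4.10), 0.482 in fibroblast-like cells (0.407 to 0.57) and 0.131 in endothelial-like cells (0.00321 to 0.778). The difference between classes was not tested, and the endothelial-like value rests on 1 UMI in EOM-DMD and 34 in TA-DMD, at 4.70 CPM, under the macrophage-like level of that library. In fibroblast-like cells the 2 libraries lay in different clusters, and the part of that in the ratio was not tested.

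Barcodes that the filters or the doublet step left out also held UMIs of 5 of the genes above the limit of 0.289 CPM that a count of 0 allows. They stood at 0.578 CPM for Pitx1, 16.9 CPM for Foxc1, 0.866 CPM for Foxc2, 3.66 CPM for Tbx1 and 9.91 CPM for Tbx15. Over all analysed cells the same genes stood at 1.39, 52.3, 3.42, 4.66 and 31.2 CPM.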

How the results depend on the processing

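In satellite-like cells, 4 genes passed the 2-fold rule, and 0 when cells were thinned to 1000 UMIs, where the WT pair of Tbx1 turned to a log2 ratio of 1.344, with 2 UMIs left in EOM-WT and 0 in TA-WT. In mural-like cells the count fell from 1 to 0 with thinning and without the cell richest in each gene. In fibroblast-like cells it went from 1 to 2 (Foxc1 and Tbx15) with a prior of 1 CPM or under stricter cell limits (1000 UMIs, 10% mitochondrial). The share of all genes that edgeR called under the alternatives is not given here, so its counts are no result about these genes as a set. In satellite-like cells edgeR called 0 of the genes described here, 1 with no filter on low counts, 5 without doublet removal and 4 with each library clustered alone. Its 1 mural-like call became 0 without the label term and 0 leaving out any 1 library. Those fits have muscle as the only term, and the lone library of a muscle is assumed to vary like the others. Of 238 log2 ratios of the genes under the alternatives, 212 lay within a counting interval of the reported value, 25 outside it and 1 reversed. That interval joins separate Poisson limits of the 2 libraries and is not the one given in parentheses. Reversal was counted for called ratios alone. Among the uncalled, thinning took Foxc2 in mural-like cells from 0.483 to -1.13 in the WT pair. Of the 83 log2 ratios that belong to called ratios, 81 kept the sign. Thinning also took the WT pair of Lbx1 to 0. The stricter cell filter in satellite-like and mural-like cells, and leaving out the satellite-like cluster mostly of 1 library, were not run because a library fell under 50 cells. Folds within clusters and the values of myofibre-like and lymphatic endothelial-like cells were added after the data were seen. Cell number limits the WT pair, where the 56 satellite-like cells of TA-WT held 0 to 10 UMIs of any of the genes, and depth the DMD pair, where those of TA-DMD had a median of 1052 UMIs. No paired analysis was possible because each group holds 1 library, so no replicates pair across muscles; edgeR's label term stands for the 2 label pairs.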
